A study of Mus musculus with 6 samples.

Results

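The genes described here make, break down and bind retinoic acid, the active form of vitamin A: Rdh10, Aldh1a1, Aldh1a2, Aldh1a3, Cyp26a1, Cyp26b1, Crabp1, Crabp2 and Stra6. They were taken by name, as every probe set of the array whose only annotated gene symbol is one of these 9. This gave 12 probe sets of 45101: 3 for Aldh1a3, 2 for Rdh10 and 1 for each of the other genes. Both compartments came from wild-type FVB/N embryos of unknown sex at embryonic day 13 (Theiler stage 21). Bladders were dissected free above the ureters and held in 20 µM EDTA for 20 minutes, and mesenchyme and epithelium were then parted with a needle. The epithelium arrays are labelled urothelium. There were 3 arrays of mesenchyme (replicates 1, 2 and 4) and 3 of urothelium (replicates 5, 7 and 8), from RNA amplified in 2 rounds and read on Affymetrix MOE430 arrays. The labels state that samples were not pooled but name no embryo for any array, so the spread behind each p-value is that among these samples and may be technical.

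Retinol circulates bound to a carrier protein and enters some cells through the receptor STRA6. Inside the cell it is oxidised to retinaldehyde, mainly by RDH10 in the embryo, and then to retinoic acid by an ALDH1A enzyme. Retinoic acid binds the nuclear receptors RAR and RXR, CRABP proteins hold it in the cytoplasm, and CYP26 enzymes oxidise it to products that are cleared. In the embryonic bladder, retinoic acid is known as a signal for the specification of urothelial cells, and Aldh1a2 is known as the ALDH1A gene of many embryonic mesenchymes.

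The dissection can be judged from genes outside this group. At an adjusted p under 0.05 in limma's test, 13 of 14 epithelial markers were higher in urothelium. Krt5 did not pass, though its mean was higher in urothelium (344 in mesenchyme and 1166 in urothelium, adjusted p = 0.0882). By the same test 10 of 10 fibroblast and mesenchymal markers were higher in mesenchyme. Summed over the epithelial list, signals ran from 488051 to 554052 on the urothelium arrays and from 10624 to 14000 on the mesenchyme arrays. For the fibroblast list the sums were 301776 to 407912 in mesenchyme and 14438 to 17470 in urothelium. Mesenchyme 1 and urothelium 5 stood apart in the beta-actin 3' to 5' ratio, which rises as amplified RNA is cut short of its 5' end. It was 8.40 on mesenchyme 1 and 8.60 on urothelium 5, and 2.29 to 4.89 on the remaining arrays. The same ratio of Gapdh did not set mesenchyme 1 apart, at 11.5, with 26.3 on urothelium 5 and 9.77 to 15.7 on the others. The number of arrays limits the precision throughout.

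Rdh10 and Aldh1a2, which encode enzymes of both steps from retinol to retinoic acid, and the binding protein gene Crabp2 were higher in mesenchyme at an adjusted p under 0.05 (limma, adjusted over 18193 genes). A higher mean signal in urothelium, not past the test, was found for Aldh1a1, another synthesis gene, and Cyp26a1, a breakdown gene. Rdh10, Aldh1a2 and Crabp2 are 3 of 9 members, where 8.99% of all genes were higher in mesenchyme by the same rule. In the other direction 0 of 9 members passed limma's test, against 5.75% of all genes. At an unadjusted p under 0.05 there were 6 members in either direction, 2 of them towards urothelium, where 25.1% of all genes reached it in either direction. Those 2 were again Aldh1a1 and Cyp26a1. Both passed after quantile normalization and with arrays centred on their medians, settings under which Crabp2 was lost and 2 members were higher in each compartment. Of all genes, quantile normalization called 1407 higher in mesenchyme and 1237 in urothelium, and centring called 1198 and 1708. With array weights 4 members were higher in mesenchyme and 2 in urothelium, in a fit that called 3033 and 2074 of all genes. The arrays of the compartments did not overlap for 6 of the 9 members, 4 of them higher in mesenchyme and 2 higher in urothelium; over all genes 30.2% did not overlap, 18.2% higher in mesenchyme and 12.0% higher in urothelium. The median log2 difference of the members was −0.48, beside −0.11 for all genes tested. Log2 differences are urothelium minus mesenchyme on the scale log2(signal + 45), where signal is the deposited linear array intensity, and this scale understates the change of dim probe sets.

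**Figure D1:**
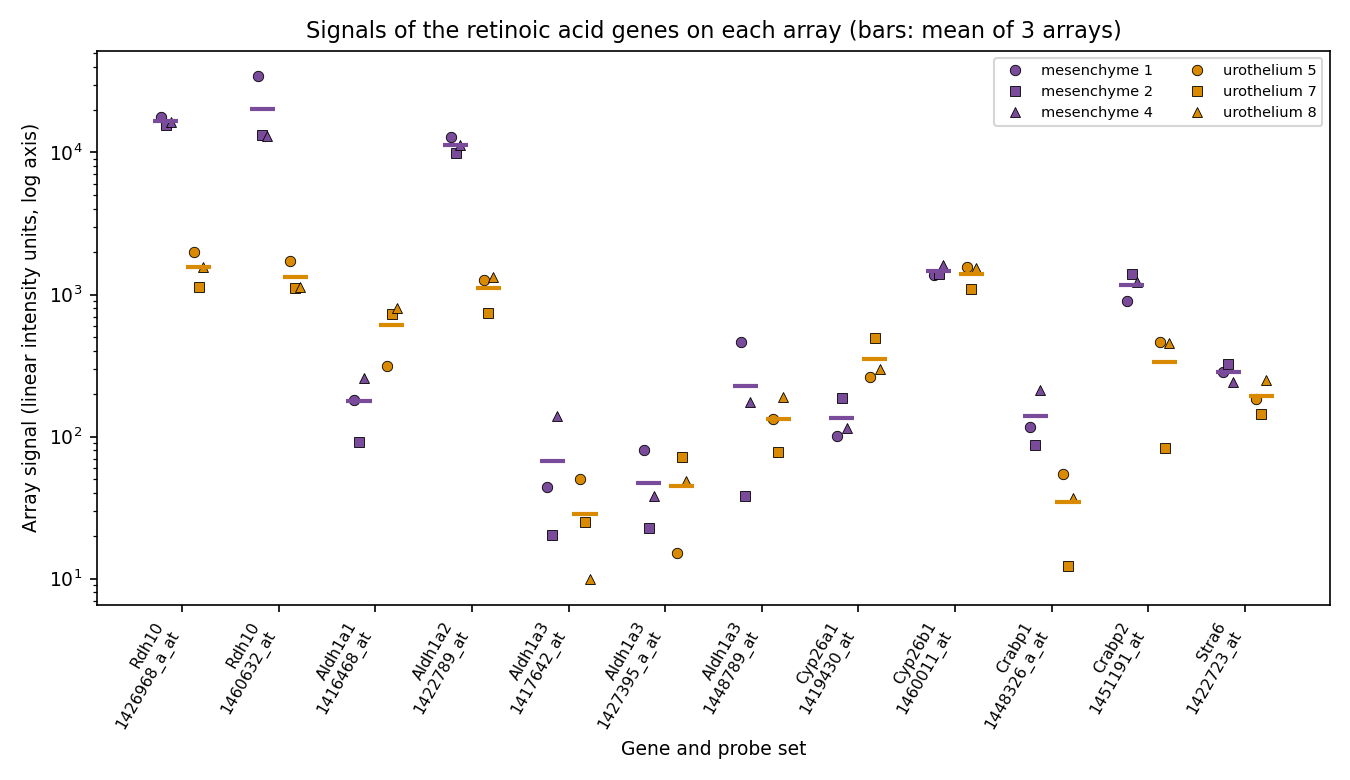
Signal of each of the 12 probe sets (linear intensity units on a log axis) on the 3 mesenchyme arrays (purple) and the 3 urothelium arrays (orange), with a bar at the mean of 3 arrays. Both Rdh10 probe sets and Aldh1a2 lie about an order of magnitude lower in urothelium, Cyp26b1 overlaps between compartments, and the Aldh1a3 probe sets are dim on most arrays.

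**Figure D2:**
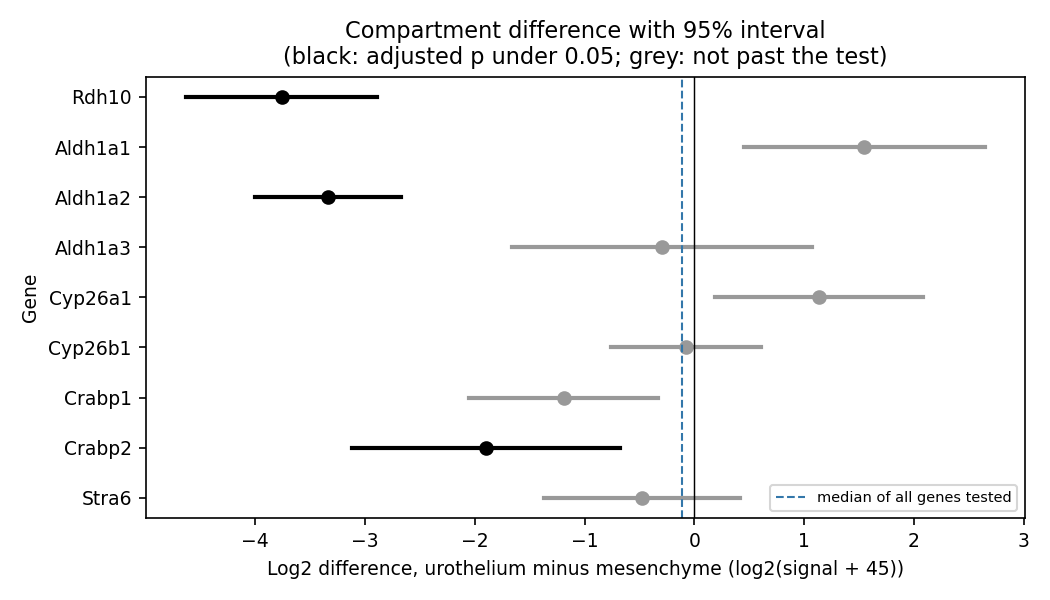
Log2 difference, urothelium minus mesenchyme, for the probe set used for each gene, with its 95% interval from limma; black marks an adjusted p under 0.05. Rdh10 (−3.76), Aldh1a2 (−3.34) and Crabp2 (−1.90) are black, and the dashed line is the median of all genes at −0.11.

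Stra6, the membrane receptor that takes up retinol from its carrier, gave signals of 283, 322 and 243 in mesenchyme and 184, 145 and 251 in urothelium. The highest urothelium array lay above the lowest mesenchyme array, so the compartments overlapped. The log2 difference was −0.48 ± 0.40 (SE), with a 95% interval from −1.37 to 0.42 and an adjusted p of 0.541. The interval therefore leaves room for a difference of more than 2-fold towards mesenchyme.

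Of 9 measured genes for the carriage and storage of retinol, 1 was higher in mesenchyme and 1 in urothelium, beside 8.99% and 5.75% of all genes. Lrat encodes the enzyme that esterifies retinol for storage. Its signals were 525, 550 and 444 in mesenchyme and 10.2, 17.1 and 30.8 in urothelium. The compartments did not overlap, with a log2 difference of −3.11 ± 0.38 (adjusted p = 0.000225). The urothelium signals lie below the added 45, and the difference ran from −4.76 to −1.79 over the alternative settings. The probe sets of Lrat disagree: the second showed a log2 difference of −0.51 ± 0.47 and did not pass over all probe sets (adjusted p = 0.673). Ttr encodes transthyretin, which carries thyroid hormone and the retinol-binding protein in blood. It gave 9.21, 5.42 and 13.2 in mesenchyme and 2928, 7056 and 3225 in urothelium, a log2 difference of 6.24 ± 0.45 (adjusted p = 7.98e-06). Of the other Ttr probe sets, 2 passed over all probe sets and 1 did not (log2 difference 2.25, adjusted p = 0.122). The mesenchymal signals of Ttr are so low that the size of its difference moved from 4.50 to 8.70 over the alternative settings. Rbp4, the retinol-binding protein gene, differed by −0.55 ± 0.40 (adjusted p = 0.458), and was named after its value was seen.

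Rdh10, the dehydrogenase for the first oxidation step, was bright in mesenchyme on both of its probe sets. On the first, signals were 17702, 15524 and 16460 in mesenchyme and 1984, 1135 and 1573 in urothelium. On the second, which had the higher mean and was used for the gene, they were 34581, 13311 and 13018 in mesenchyme and 1733, 1115 and 1134 in urothelium. Each mesenchyme array lay above each urothelium array on both. The log2 differences were −3.40 ± 0.28 and −3.76 ± 0.40 with adjusted p over all probe sets of 3.79e-05 and 0.000161. When each probe set was tested by itself, 7.34% of all probe sets passed and 4.46% were higher in mesenchyme. In the fit over genes, Rdh10 had an adjusted p of 7.93e-05.

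The probe sets of Rdh10 parted on a single array. On mesenchyme 1 the second probe set read 2.63 times the mean of the other mesenchyme arrays, and the first read 1.11 times that mean. Mesenchyme 1 has a high 3' to 5' ratio of beta-actin but not of Gapdh; the part of RNA quality in this gap was not tested. Without mesenchyme 1 the difference of the second probe set was −3.30 (adjusted p = 0.000146), close to that of the first. In bulk tissue such as this, fewer cells that express a gene and less RNA per cell cannot be told apart.

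Among 15 other measured oxidoreductases of retinol and retinaldehyde, 1 was higher in urothelium and 0 were higher in mesenchyme in limma's test. Over all genes the shares were 5.75% and 8.99%. Towards mesenchyme, 1 of the 15 had an unadjusted p under 0.05 in that test. The gene higher in urothelium was Adh1, a cytosolic alcohol dehydrogenase that also oxidises retinol. Its signals were 11148, 23255 and 21604 in urothelium and 290, 296 and 1263 in mesenchyme. The lowest urothelium array was several times the highest mesenchyme array, and the log2 difference was 5.07 ± 0.52 (adjusted p = 6.87e-05). The retinol-oxidising genes Rdh10 and Adh1 thus differed in opposite directions. Dhrs3, a retinaldehyde reductase that works against RDH10, had 3095 ± 1470 (SD, n = 3) in mesenchyme and 4792 ± 3504 in urothelium, with overlap (log2 difference 0.53 ± 0.52, adjusted p = 0.609). Adh5, an alcohol dehydrogenase of most tissues, differed by −0.15 ± 0.26 (adjusted p = 0.797). Dhrs3 and Adh5 were named after their values were seen.

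Of the ALDH1A genes, which encode the enzymes for the second oxidation step, Aldh1a2 passed the test and Aldh1a1 and Aldh1a3 did not. Aldh1a2 gave 12855, 9854 and 11298 in mesenchyme and 1257, 738 and 1330 in urothelium. The mesenchyme arrays were close to each other and all far above urothelium, a ratio of mean signals of 10.2. Its log2 difference was −3.34 ± 0.30 (adjusted p = 3.23e-05).

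Aldh1a1 had its higher mean in urothelium, with signals of 181, 91.1 and 260 in mesenchyme and 316, 724 and 799 in urothelium. The compartments did not overlap, but the gap between mesenchyme 4 and urothelium 5 was narrow. The mean in urothelium was 3.46 times that in mesenchyme, with a log2 difference of 1.55 ± 0.50, a 95% interval from 0.45 to 2.65 and an adjusted p of 0.0639. It passed without urothelium 5 (1.93, adjusted p = 0.0347) and without both mesenchyme 1 and urothelium 5 (1.98, adjusted p = 0.0277). Over its 16 alternatives the adjusted p ran from 0.00461 to 0.232, with 7 past the test, and the difference was positive in each.

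Aldh1a3, the third gene of the family, was dim. Its brightest probe set read 466, 38.2 and 176 in mesenchyme and 133, 77.3 and 190 in urothelium, and the array values of the compartments were interleaved. Its other probe sets averaged 67.8 and 47.1 in mesenchyme and 28.3 and 45.1 in urothelium, and each lay below the 25th percentile of its array on 4 of 6 arrays. The log2 difference of the brightest was −0.29 ± 0.62 (adjusted p = 0.837), and its sign turned with arrays centred on their medians (0.096) and without mesenchyme 1 (0.34). No compartment difference was detectable for Aldh1a3 with these probe sets, and the 95% interval ran from −1.66 to 1.07.

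Cyp26a1 and Cyp26b1 encode enzymes that oxidise retinoic acid for clearance. Cyp26a1 is also a textbook target gene of retinoic acid, through a pair of receptor hexamers, short words of bases, in its promoter; that stretch is shown because it ties this gene to the product of the enzymes above. In the 250 bases before the annotated start (RefSeq, GRCm38, plus strand, chr19:37697558-37697807) the capitals mark receptor hexamers on either strand. The search took AGGTCA as the consensus word, with GGGTCA as a first variant, then AGTTCA as another and finally the variant GGTTCA. The promoter stretch of Aldh1a2 (chr9:71215539-71215788, plus strand) is given for comparison and held 0 such hexamers.
Cyp26a1: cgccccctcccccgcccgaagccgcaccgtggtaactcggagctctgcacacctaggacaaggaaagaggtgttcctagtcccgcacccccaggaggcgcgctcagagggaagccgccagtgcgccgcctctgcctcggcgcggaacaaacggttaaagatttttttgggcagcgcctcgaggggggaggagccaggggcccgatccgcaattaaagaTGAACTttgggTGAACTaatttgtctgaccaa
Aldh1a2: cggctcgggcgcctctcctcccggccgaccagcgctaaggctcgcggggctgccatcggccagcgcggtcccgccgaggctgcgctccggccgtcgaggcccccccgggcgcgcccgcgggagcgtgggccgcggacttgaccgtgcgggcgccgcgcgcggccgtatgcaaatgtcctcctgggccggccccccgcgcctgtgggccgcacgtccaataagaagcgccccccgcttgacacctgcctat

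Read on the minus strand, the Cyp26a1 hexamers form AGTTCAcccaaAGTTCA, 2 hexamers in the same direction with 5 bases between, the arrangement called DR5. It lies 16 to 32 bases before the annotated start. A DR5 was found in 32 of 32851 windows of the same kind (250 bases before to 50 after a start), or 0.0974%, while 43.7% held at least 1 hexamer. Of the 9 members, 6 had a window in the table, 10 windows in all; Rdh10, Aldh1a3 and Crabp2 had none. Cyp26a1 was the member with a DR5, and among 34 other pathway genes with a window 1 had it, the receptor gene Rarb, with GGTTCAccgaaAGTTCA on its own strand 37 to 53 bases before its start (chromosome 14). A match of letters is a description and does not show binding. The other arrangements searched, with 1 base (DR1) or 2 bases (DR2) between hexamers, were found in 0.222% and 0.268% of windows.

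Cyp26a1 gave 101, 187 and 114 in mesenchyme and 263, 495 and 300.4 in urothelium. Every urothelium array was above every mesenchyme array, and the mean was 2.63 times as high. Its log2 difference was 1.14 ± 0.43, with an adjusted p of 0.117 and a 95% interval from 0.19 to 2.09. It passed in 3 of 16 alternatives, those that rescale the arrays (quantile normalization, 1.45; median centring, 1.53) or weight them (1.31).

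Cyp26b1 signals were 1378, 1387 and 1626 in mesenchyme and 1563, 1093 and 1545 in urothelium. The compartments overlapped, with urothelium 7 below all mesenchyme arrays. The log2 difference was −0.076 ± 0.31 (adjusted p = 0.923) and turned positive after quantile normalization (0.16), median centring (0.31) and without urothelium 7 (0.088). The 95% interval from −0.76 to 0.61 does not reach a 2-fold difference in either direction in this fit.

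Of the cytoplasmic binding protein genes, Crabp2 was higher in mesenchyme and Crabp1 did not pass the test. Crabp2, whose protein is known to pass retinoic acid to its nuclear receptor, gave 896, 1389 and 1230 in mesenchyme and 467, 83.3 and 458 in urothelium. The compartments did not overlap, and urothelium 7 lay far below the other urothelium arrays. The log2 difference was −1.90 ± 0.55 (adjusted p = 0.0414). This call was lost without mesenchyme 1 (−2.07), mesenchyme 2 (−1.77), mesenchyme 4 (−1.86) or urothelium 7 (−1.24), after quantile normalization (−1.60) and median centring (−1.51), and when adjusted over all probe sets (adjusted p = 0.0642). Its adjusted p ran from 0.000554 to 0.131 over 17 alternatives. The lowest came with array weights, which gave urothelium 7, the array with the lowest Crabp2 signal, the highest weight (3.02).

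Crabp1, the partner gene whose protein is linked to the breakdown of retinoic acid, read 117, 87.5 and 214 in mesenchyme and 54.2, 12.2 and 37.2 in urothelium. The arrays did not overlap, but the signals were low, under the array median on 5 of 6 arrays. The log2 difference was −1.19 ± 0.39 (adjusted p = 0.0699), and it passed with array weights (−1.49). Fabp5, another carrier of retinoic acid in cells, was bright in both, with 45887 ± 7796 in mesenchyme and 55175 ± 7315 in urothelium. It overlapped between compartments, with a log2 difference of 0.27 ± 0.26 (adjusted p = 0.598).

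Among the receptor genes, 1 of 6 was higher in mesenchyme and 1 in urothelium, beside 8.99% and 5.75% of all genes. Rarb, a receptor gene that retinoic acid induces in many tissues, had 5660, 9744 and 7408 in mesenchyme and 2966, 4284 and 4124 in urothelium. The compartments did not overlap, and the log2 difference was −0.98 ± 0.29 (adjusted p = 0.0477). Without mesenchyme 2 (−0.78), mesenchyme 4 (−0.98), urothelium 5 (−0.81), urothelium 7 (−1.08) or urothelium 8 (−1.05) the call was lost, as with median centring (−0.59), without the intensity trend and when adjusted over all probe sets (adjusted p = 0.0841). Rxra, the common RXR partner, had 1677, 2508 and 2464 in mesenchyme and 4324, 4295 and 8349 in urothelium (log2 difference 1.28 ± 0.34, adjusted p = 0.0254). Its call was lost without mesenchyme 1 (1.10), mesenchyme 4 (1.37), urothelium 7 (1.44) or urothelium 8 (0.97), and when its probe sets were averaged (0.68). The other Rxra probe sets differed by 0.85 and −0.10 and were not past the test.

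Genes known from other tissues to respond to retinoic acid differed in both directions. Of 13 measured, 4 were higher in mesenchyme and 2 in urothelium. The median log2 difference was −0.012, beside −0.11 for all genes. This median is the value of Cdx1, which was dim on every array (signals of 3.83 to 18.3). The genes next to Cdx1 in rank were Rarb (−0.98) and Hoxa5 (0.42), so the median says little about the list. Those higher in mesenchyme were Rarb, Tgm2, Meis1 and Meis2. Tgm2, the tissue transglutaminase gene, gave 14796, 24178 and 27638 in mesenchyme and 2594, 2510 and 1179 in urothelium (log2 difference −3.41 ± 0.36, adjusted p = 9.07e-05). Of its 6 probe sets 4 passed over all probe sets in the same direction and 2 did not.

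Meis1 and Meis2 encode homeodomain partners of Hox proteins. Meis2 had 23416, 26969 and 30480 in mesenchyme and 7775, 5661 and 6320 in urothelium, a log2 difference of −2.03 ± 0.25 (adjusted p = 0.00025). Another Meis2 probe set did not pass over all probe sets (−1.12 ± 0.62, adjusted p = 0.407), and its remaining probe sets passed in the same direction. Meis1 differed by −1.84 ± 0.27 (adjusted p = 0.000808), and not past the test in the mean of its 3 probe sets (−0.98, adjusted p = 0.13). By themselves its other probe sets differed by −0.84 and −0.27 and did not pass over all probe sets (adjusted p = 0.692 and 0.867). On the probe set used, Meis1 and Meis2 each had no overlap between compartments.

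The response genes higher in urothelium were Ret and Hoxb5. Ret, the receptor tyrosine kinase gene that retinoic acid sustains in the ureteric bud, read 3594, 3347 and 3666 in urothelium and 508, 105 and 337 in mesenchyme. Its urothelium arrays were tightly grouped and the log2 difference was 3.50 ± 0.47 (adjusted p = 0.000427), but its other probe set was not past the test (0.96, adjusted p = 0.421). Hoxb5 gave 393, 435 and 325 in urothelium and 27.8, 111 and 32.7 in mesenchyme (2.15 ± 0.43, adjusted p = 0.00617). Over the 42 different pathway genes measured, of 46 listed, 5 were higher in each direction, beside 8.99% of all genes higher in mesenchyme and 5.75% in urothelium. With array weights 10 were higher in mesenchyme and 7 in urothelium, in a fit that called 3033 and 2074 of all genes. With median centring the counts were 4 and 7, in a fit that called 1198 and 1708 of all genes.

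**Figure D3:**
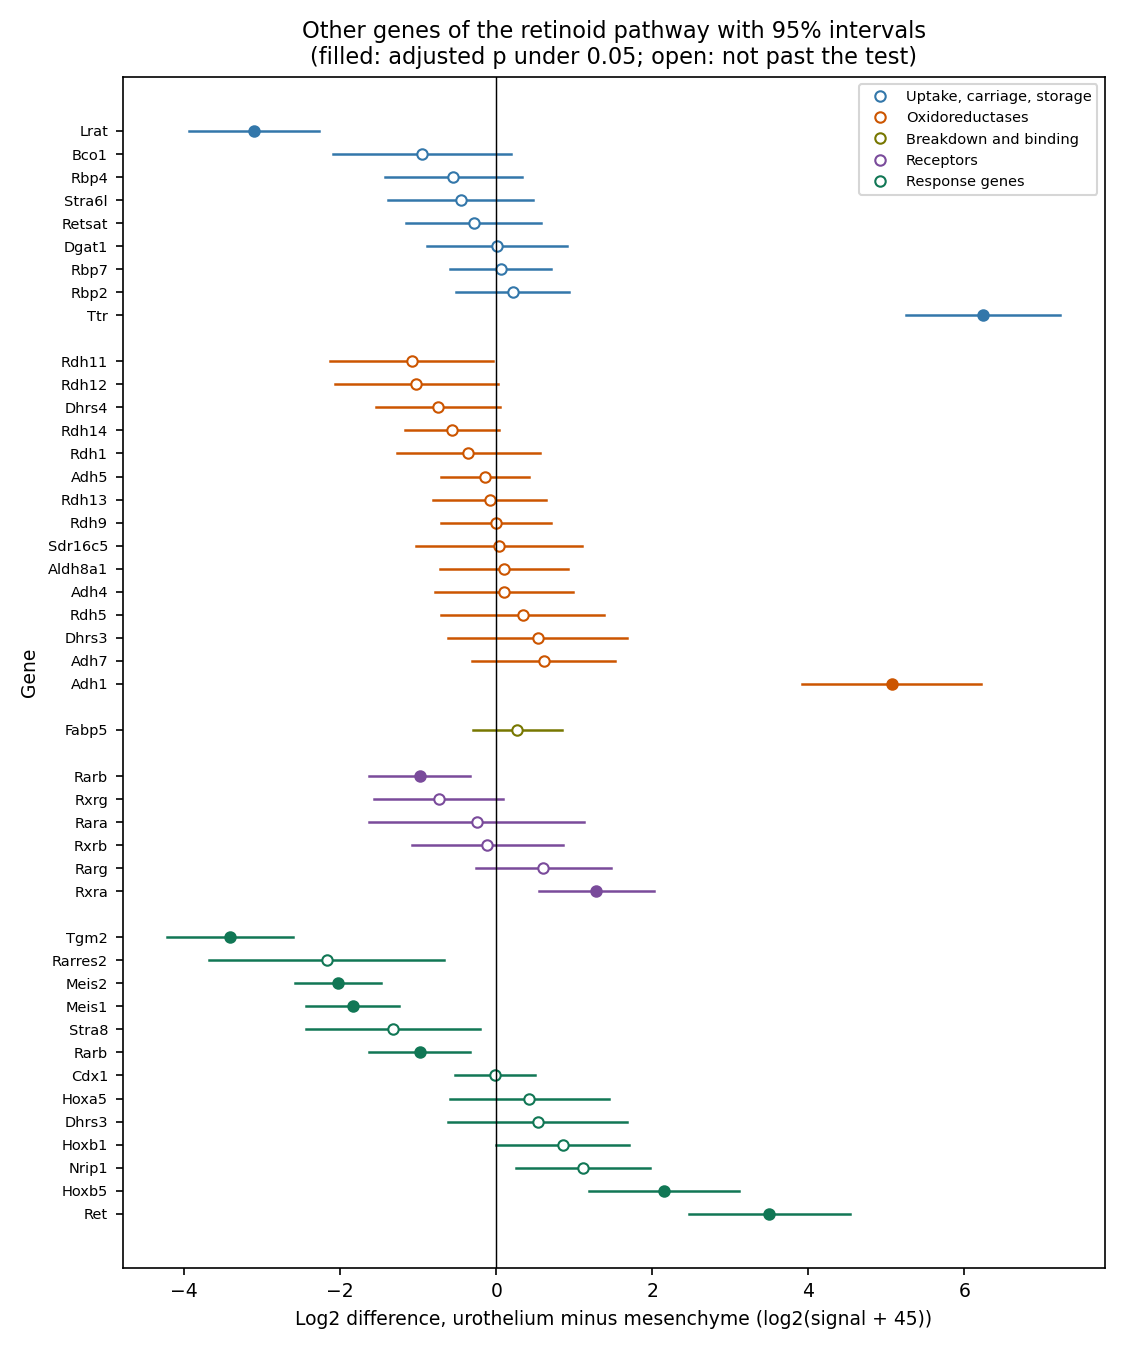
Log2 difference, urothelium minus mesenchyme, with 95% intervals for the other genes of the pathway by list; filled points have an adjusted p under 0.05, and Rarb and Dhrs3 stand in 2 lists. Ttr (6.24), Adh1 (5.07) and Ret (3.50) lie farthest towards urothelium, and Tgm2 (−3.41) and Lrat (−3.11) farthest towards mesenchyme.

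The urothelium arrays kept some signal of the mesenchymal members. For Aldh1a2 the mean urothelium signal was 9.78% of the mesenchymal one, and for the Rdh10 probe sets 9.44% and 6.54%. Crabp2 kept 28.7%. The same share was 1.12% to 7.26% over the 10 fibroblast markers (median 2.99%), so Aldh1a2 and the first Rdh10 probe set lay above each of them. For smooth muscle markers it was at most 4.89% apart from Des (97.9%), and for endothelial markers 0.432% to 10.4%. Macrophage markers kept 5.58% to 47.5% (median 14.4%), a range that holds the values of Aldh1a2, Crabp2 and both Rdh10 probe sets. The brightest of them, Csf1r, with a mesenchymal mean of 4915, kept 5.58%, below Aldh1a2 and both Rdh10 probe sets. The highest share was that of Cd68, which was dim, with means of 359 in mesenchyme and 171 in urothelium. Mesothelial genes were less alike: Wt1, Lrrn4, Gpm6a and Bnc1 kept 8.49%, 9.87%, 12.2% and 15.0%, Upk3b 96.4%, and Msln was higher in urothelium. Of the mesothelial list 4 of 6 were higher in mesenchyme and 1 in urothelium. Its summed signal was 7716 to 23642 in mesenchyme and 6459 to 13617 in urothelium. Most of the urothelium sum came from Upk3b (3321 to 8404) and Msln (1434 to 3883), so the urothelium sums say little about Wt1, Lrrn4, Gpm6a and Bnc1. The part of mesothelial cells in the signal of Aldh1a2 was not tested.

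In the reverse direction, the mesenchyme arrays kept 28.9% of the urothelial signal of Aldh1a1, 38.0% of that of Cyp26a1 and 3.30% of that of Adh1. The epithelial markers kept 0.183% to 29.5% (median 2.73%), the highest being Krt5. The next highest epithelial marker was Cldn4 (9.94%). The share of Adh1 lay below that of Cldn4, that of Aldh1a1 between Cldn4 and Krt5, and that of Cyp26a1 above Krt5. Aldh1a1 and Cyp26a1 each lay under the array median on 2 arrays, both of mesenchyme, so background may make up much of these shares. Nerve, nephric duct, macrophage and red cell markers had summed signals of 1066 to 3037, 292 to 798, 6171 to 9773 and 69241 to 87951 in mesenchyme. In urothelium they were 712 to 956, 142 to 637, 811 to 941 and 56731 to 103420. Most of the red cell sum was Hbb-y, which overlapped between compartments, with means of 70227 in mesenchyme and 74564 in urothelium. The red cell sums therefore say little about the other red cell markers. For nerve and nephric duct markers 0 of 4 each passed limma's test, with 2 nerve markers and 0 nephric duct markers at an unadjusted p under 0.05, and for macrophage and red cell markers 4 of 6 and 3 of 4 were higher in mesenchyme. Their part in the members' differences was not tested, and no marker was at 0, the lowest signal being 6.42.

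**Figure D4:**
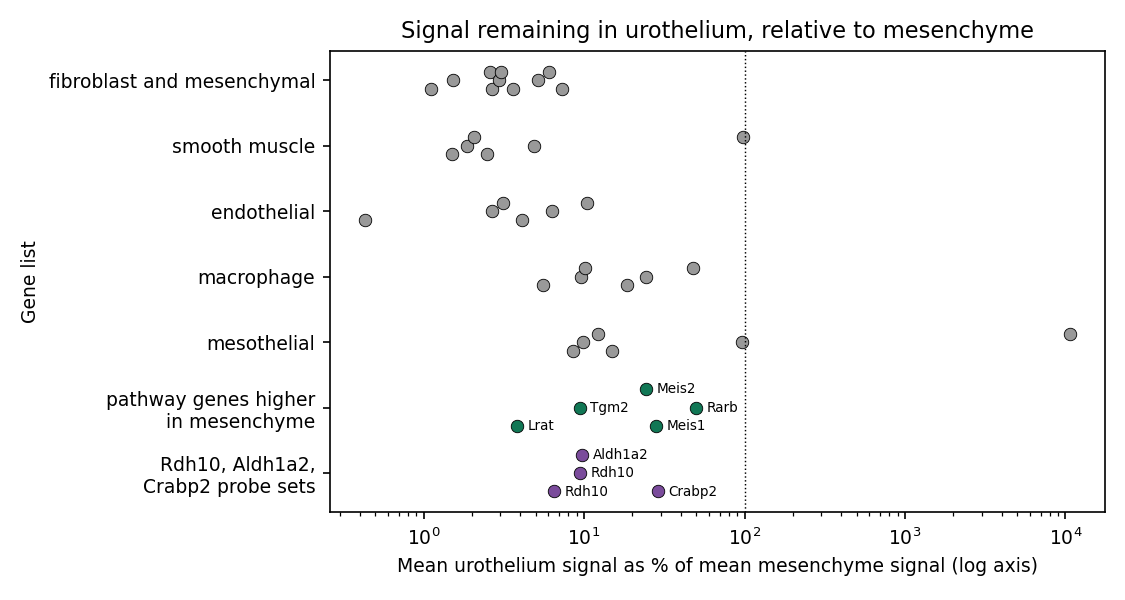
Mean urothelium signal as a percentage of mean mesenchyme signal (log axis) for marker lists (grey), pathway genes higher in mesenchyme (green) and the probe sets of Rdh10, Aldh1a2 and Crabp2 (purple). Aldh1a2 (9.78%) lies to the right of the fibroblast markers (1.12% to 7.26%), and the dotted line marks equal means.

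By profile over the 6 arrays, the genes most like each member past the test were found among those brighter than the median gene, by Pearson's r of log2 values. For Rdh10 they were Rspo2 (0.9997), Thbs2 (0.9996) and Fhl1 (0.998). For Aldh1a2 they were Spin2c (0.9985), Stbd1 (0.9983) and Iftap (0.9982), and for Crabp2 Tmem198b (0.995), Prom1 (0.992) and Ldlrad4 (0.992). All 9 were lower in urothelium, with log2 differences from −4.82 to −0.96, a direction that follows from how they were chosen. The Rdh10 profile was that of its second probe set, where mesenchyme 1 read 2.63 times the mean of the other mesenchyme arrays. At the lower bound of r above 0.95 there were 365 genes for Rdh10, 505 for Aldh1a2 and 37 for Crabp2. An r above 0.95 was thus not particular to the genes named. The part of the shared compartment contrast in these values was not tested.

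Under the alternative settings the mesenchymal calls of Rdh10 and Aldh1a2 held in 17 of 17 each, with log2 differences from −4.00 to −3.30 and from −3.55 to −2.95. Crabp2 passed in 10 of 17. These include the fit of only genes above the median signal (limma, adjusted p = 0.027). Crabp2 met that cut, a mean of 630 over all arrays, through mesenchyme (mean 1172), since its urothelium mean was 336. That pass is therefore no separate support. The direction of Aldh1a1, Cyp26a1, Crabp1 and Stra6 was the same in 16 of 16 alternatives each, and Stra6 did not pass in any of them. Without both mesenchyme 1 and urothelium 5, Rdh10 differed by −3.50, Aldh1a2 by −3.35 and Crabp2 by −2.41, each past the test.

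**Figure D5:**
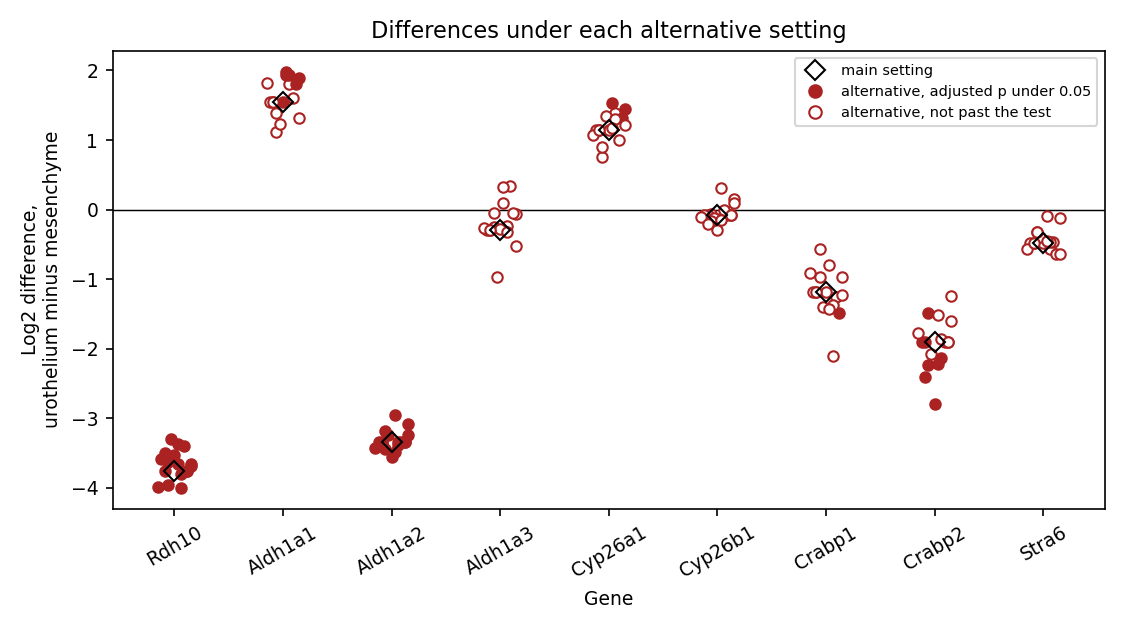
Log2 difference, urothelium minus mesenchyme, of each gene in the main setting (diamond) and in each alternative (circles, filled where the adjusted p is under 0.05). Rdh10 and Aldh1a2 are filled throughout, Aldh1a1 is filled in 7 of 16, and the values of Aldh1a3 and Cyp26b1 fall on both sides of 0, turning sign with arrays centred on their medians.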

How the data were processed

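Affymetrix MOE430 signals of 3 mesenchyme and 3 urothelium arrays were used. The authors deposited 1 linear intensity per probe set, and GCOS is named in the submitters' processing notes. The sources used here give neither its algorithm nor a genome build. No further scaling was applied, since every array had a 2% trimmed mean of 1500. Of 45101 probe sets, 64 controls were left out, 34945 had 1 gene symbol in the platform annotation, 932 several and 9160 none. Each of 18193 genes was represented by its probe set of highest mean signal over the arrays. The test ran on log2(signal + 45); the added 45 is the 25th percentile over the whole table. The compartments were compared with limma 3.58.1 in R 4.3.3 (eBayes with an intensity trend), tested on simulated data, and p-values were adjusted by Benjamini-Hochberg over all genes. Scaling to a common mean would hide a difference in total RNA, and background compresses differences of dim probe sets.

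Members, gene lists, marker lists and alternatives were chosen with earlier results of these data known. The rule named all 9 members with each probe set, and from each pathway list the genes past the test, or the 2 brightest where none passed. It also named the 3 genes most like each member past the test. Promoter windows came from RefSeq (GRCm38). Alternatives were other pseudocounts (1 and 179), quantile normalization, median centring, a filter on dim genes, no trend, array weights, other uses of probe sets and leaving out arrays; choosing the probe set by its mean log2 value was added after the data were seen.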

Additional observations from a re-analysis of the deposited data

How the results depend on the processing

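No paired analysis was possible because the compartments share no replicate number. Across all genes, 1636 were higher in mesenchyme and 1047 in urothelium, so that 39.0% of calls were towards urothelium. With arrays centred on their medians the counts were 1198 and 1708, or 58.8% towards urothelium; centring moved the median gene by 0.39 on the log2 scale, from −0.11 to 0.28, and quantile normalization moved it to 0.031. Quantile normalization called 1407 genes higher in mesenchyme and 1237 in urothelium. After centring, Rdh10 differed by −3.37 and Aldh1a2 by −2.95. With array weights 3033 and 2074 genes were called and of the pathway genes 10 passed towards mesenchyme and 7 towards urothelium. Leaving out 1 array gave 652 to 1061 genes higher in urothelium, lowest without urothelium 7, and 1150 to 1703 in mesenchyme. The number of members higher in mesenchyme, 3 in the main setting, was 2 after quantile normalization, median centring or adjustment over all probe sets and 4 with array weights, and 2 to 3 when 1 array was left out. The number higher in urothelium, 0 in the main setting, was 2 after quantile normalization, median centring or array weights. It was 1 without the intensity trend, without both mesenchyme 1 and urothelium 5 or with probe sets averaged, and 0 to 1 when 1 array was left out. Without the trend, without both arrays and with probe sets averaged, 991, 1236 and 833 of all genes were higher in urothelium. The sign of Aldh1a3 turned with median centring (0.096), without mesenchyme 1 (0.34) and without both arrays (0.32), and leaving out 1 array gave −0.97 to 0.34. That of Cyp26b1 turned after quantile normalization (0.16), with median centring (0.31) and without urothelium 7 (0.088), and leaving out 1 array gave −0.16 to 0.088. The cause of these changes was not tested. With only genes above the median signal, Aldh1a1, Aldh1a3, Cyp26a1, Crabp1 and Stra6 gave no value.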
